A study of Mus musculus with 9 samples.

Results

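The hexosamine biosynthetic pathway turns a share of the sugar that enters a cell into UDP-GlcNAc, the activated form of N-acetylglucosamine. Described here are the 5 genes of its enzymes (Gfpt1, Gfpt2, Gnpnat1, Pgm3 and Uap1) and Ogt, the gene of the transferase that uses UDP-GlcNAc to modify proteins inside the cell. These 6 genes, of 18193 genes represented on the arrays, have 22 probe sets (the short-probe groups that each report a transcript), of 45037 that are not array controls. The genes were taken by name as a pathway, but the pathway was chosen from earlier results of these data in which Gfpt2 stood among the largest rises. Their values with each peptide against control are therefore given as a description, with no p-value. Where such a value is said to pass a test or not, under any setting, that too is only a description.

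In the first and rate-limiting step, glutamine:fructose-phosphate transaminase moves nitrogen from glutamine onto fructose phosphate to give glucosamine phosphate, and Gfpt1 and Gfpt2 encode alternative isozymes of it. Gnpnat1 acetylates the product, Pgm3 moves the phosphate within it, and Uap1 joins the result to UDP. UDP-GlcNAc then feeds protein glycosylation, the hyaluronan synthases at the cell surface, and OGT, which places single GlcNAc sugars on nuclear and cytosolic proteins. The pathway draws on glucose, glutamine, acetyl-CoA and UTP, and is known in fat cells as a sensor of nutrient supply.

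The cells were primary white adipocytes from male C57BL6 mice aged 30 to 35 days, and their RNA was read on 9 Affymetrix arrays. Stromal-vascular cells of inguinal fat were differentiated in culture by 2 days of 5 µg/ml insulin, 1 µM rosiglitazone, 1 µM dexamethasone and 0.5 µM isobutylmethylxanthine, then by rosiglitazone and insulin, and held in medium alone from day 6, in all groups. On day 8, 3 samples received 100 ng/ml PTH(1-34) for 4 h, 3 received 100 ng/ml PTHrP(1-34) for 4 h, and 3 were controls, whose own treatment the labels do not state. The peptides are fragments (residues 1 to 34) of parathyroid hormone (PTH) and of its related protein (PTHrP), and share a receptor. The labels call the replicates biological without saying that they came from separate mice or cultures, so p-values measure only the spread between these samples. Whether animals were pooled is not stated either.

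Intensities are the deposited values per probe set in arbitrary units, and their median per array lay between 48.2 and 52.6. With 3 arrays a group, precision is limited by their number. A probe set is called dim here below an intensity of 29.0, the 40th percentile of the probe sets' means. A gene is said to pass where limma's two-sided test, with Benjamini-Hochberg adjustment over all 18193 genes, gave an adjusted p below 0.05. Ucp1, a thermogenic gene used here as a check of the treatment, had intensities of 1520, 1789 and 2133 with PTH and of 1684, 1457 and 1716 with PTHrP, against 24.0, 11.8 and 14.2 in controls. The summed intensity of 8 measured adipocyte markers ranged over 66184 to 71483 in treated arrays and 67098 to 69315 in control arrays, with Lep the marker that was dim on every array. The 10 measured preadipocyte and fibroblast markers summed to 37272 to 40270 in treated and 39318 to 39913 in control arrays, with 1 of them dim on every array. The 5 measured proliferation markers, none of them dim on every array, summed to 4732 to 5666 in treated and 5551 to 5733 in control arrays. Of the 5 lymphocyte markers measured all were dim on every array, as were 4 of 6 epithelial and 3 of 7 endothelial markers. The 8 macrophage markers summed to 1102 to 1270 in treated and 1044 to 1152 in control arrays, and none of them passed the test. The 7 smooth muscle and pericyte markers summed to 22834 to 24209 in treated arrays, all below the 25626 to 26313 of control arrays. RNA quality was read from the 3'/5' ratio of the array's actin controls, which was 1.61 ± 0.0312 with PTH and 1.56 ± 0.0457 with PTHrP, against 1.47 ± 0.0324 in controls (SD, n = 3 each). Each of the 6 treated arrays exceeded each control, with p = 0.0119 by exact permutation (two-sided), the smallest possible. The same ratio of the GAPDH controls was 0.983 ± 0.0047 with PTH and 0.960 ± 0.0257 with PTHrP, against 0.965 ± 0.0186 in controls (exact permutation p = 0.643). The part of these shifts in the results for the 6 genes was not tested, and in bulk samples fewer cells of a type and less RNA per cell cannot be told apart.

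Gfpt2 and Uap1, the genes of the first and the last step, were higher with both peptides, while the genes of the steps between them were near their control levels. The windows before their annotated starts are shown here, with that of Gfpt1 as the isozyme whose signal stayed close to control. Each window holds the 250 bases before the RefSeq start, on the strand of the gene, in build GRCm38.p6. Gfpt2 is at chr11:49793905-49794154 (+), Uap1 at chr1:170174965-170175214 (-) and Gfpt1 at chr6:87042596-87042845 (+). Capitals mark TGACG, the core of the cAMP response element.
Gfpt2: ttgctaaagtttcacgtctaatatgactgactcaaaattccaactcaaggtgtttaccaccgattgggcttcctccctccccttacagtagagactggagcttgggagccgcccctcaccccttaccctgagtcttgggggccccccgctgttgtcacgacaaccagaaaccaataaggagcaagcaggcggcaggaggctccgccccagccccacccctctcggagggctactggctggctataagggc
Uap1: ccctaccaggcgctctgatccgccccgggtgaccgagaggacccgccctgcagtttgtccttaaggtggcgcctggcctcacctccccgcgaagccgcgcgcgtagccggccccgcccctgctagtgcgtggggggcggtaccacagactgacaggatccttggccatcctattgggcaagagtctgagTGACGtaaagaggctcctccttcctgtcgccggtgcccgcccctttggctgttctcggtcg
Gfpt1: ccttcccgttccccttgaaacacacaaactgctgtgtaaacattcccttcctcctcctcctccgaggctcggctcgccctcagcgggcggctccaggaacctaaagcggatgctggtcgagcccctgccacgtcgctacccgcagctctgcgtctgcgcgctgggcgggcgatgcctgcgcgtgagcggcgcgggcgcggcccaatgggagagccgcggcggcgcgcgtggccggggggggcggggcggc
RefSeq windows of 250 bases before and 50 after the start were given for 5 of the 6 genes, all but Gnpnat1, and numbered 6, since Ogt has 2. They were searched on both strands for the full cAMP response element TGACGTCA, for its core TGACG, which the full element contains, for TGACGTGG, the core of the unfolded protein response element, which also contains TGACG, and for the endoplasmic reticulum stress element, CCAAT and CCACG parted by 9 bases. Of all 32851 mouse windows, 1.79% held TGACGTCA, 20.8% TGACG, 0.676% TGACGTGG and 0.119% the endoplasmic reticulum stress element. TGACG was found in the Uap1 window alone among the 6, starting at positions -61 and 2 from the start on the gene's strand. The other letters were not in any of the 6 windows, which says nothing of which factors act there.

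**Figure D1:**
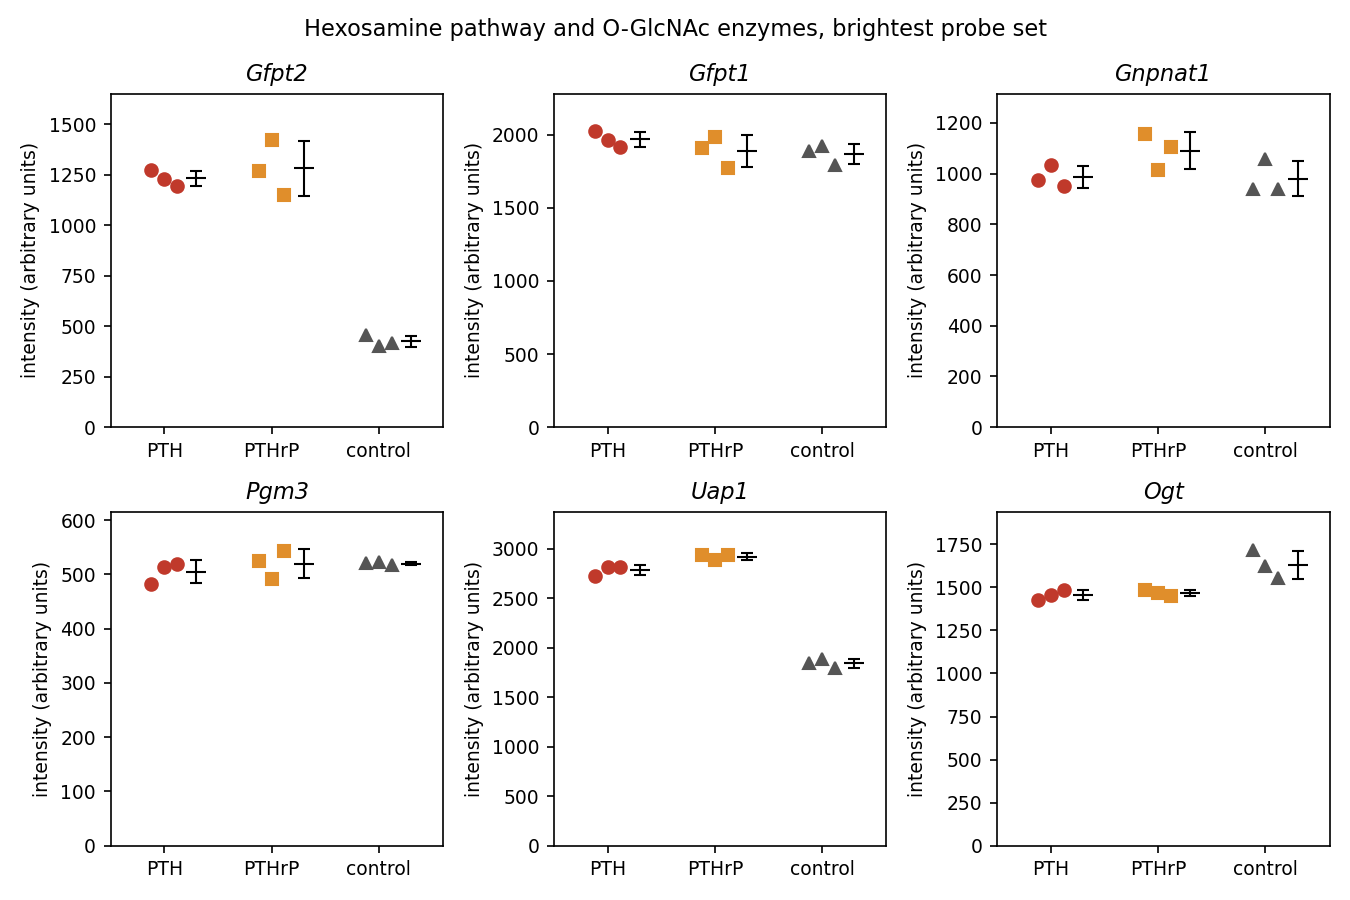
Intensity (arbitrary units, axes starting at 0) of the brightest probe set of each of the 6 genes. Symbols are the 3 arrays of each group and bars the mean ± SD. The Gfpt2 arrays lie at 1151 to 1423 with either peptide and at 403 to 457 in controls, and the Uap1 arrays at 2730 to 2943 with either peptide and at 1797 to 1887 in controls.

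Gfpt2 (Entrez gene 14584) had intensities of 1272, 1228 and 1194 with PTH, 1268, 1423 and 1151 with PTHrP, and 457, 403 and 414 in controls. Every treated array was far above the highest control, and the groups of the peptides overlapped. The means were 1231 ± 38.7 with PTH, 1281 ± 137 with PTHrP and 425 ± 28.2 in controls (SD, n = 3 each), which are ratios of 2.90 and 3.02 to control. On the scale of log2(intensity + 16), used for every log2 value here, the change was 1.50 (SE 0.08, 95% interval 1.31 to 1.69) with PTH and 1.55 (SE 0.08, 1.36 to 1.74) with PTHrP. The gene has a single probe set, so no other probe set on the array bears on it.

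Gfpt1 (Entrez gene 14583), the isozyme that most tissues express, had intensities of 2024, 1961 and 1919 with PTH, 1912, 1986 and 1771 with PTHrP, and 1888, 1920 and 1790 in controls at its brightest probe set. The 3 groups overlapped. Its log2 change was 0.08 (SE 0.06, -0.05 to 0.21) with PTH and 0.02 (SE 0.06, -0.11 to 0.15) with PTHrP, so both intervals ended well short of those of Gfpt2. Its 6 probe sets had log2 changes between -0.11 and 0.23 with PTH and between -0.13 and 0.22 with PTHrP, and none passed the test. Its second-brightest probe set read 160, 158 and 167 with PTH, 151, 143 and 140 with PTHrP, and 158, 164 and 155 in controls, so that its PTHrP arrays were all below the controls (log2 change -0.13, not passing). Of the 6 probe sets, 3 had a mean below the dim level and carry little signal. The 3 above it had log2 changes of 0.02 to 0.08 with PTH and of -0.13 to 0.02 with PTHrP. Signals of different probe sets are not on a common scale, so the levels of the isozymes cannot be set against each other.

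Of the genes in the middle of the pathway, neither passed the test. Gnpnat1 (Entrez gene 54342), the acetyltransferase, had intensities of 975, 1033 and 952 with PTH, 1155, 1013 and 1104 with PTHrP, and 940, 1059 and 939 in controls. The highest control lay above every PTH array and above 1 PTHrP array. The log2 change was 0.01 (SE 0.07, -0.15 to 0.18) with PTH and 0.15 (SE 0.07, -0.01 to 0.32) with PTHrP. Over its 4 probe sets it ranged from 0.01 to 0.14 with PTH and from -0.07 to 0.15 with PTHrP. Without the 1 below the dim level, the range with PTHrP was 0.06 to 0.15. The second-brightest read 992, 943 and 878 with PTHrP, all above its controls of 873, 855 and 819 (log2 change 0.14, not passing). Such groups were found on 8.93% of all probe sets. Pgm3 (Entrez gene 109785), the phosphomutase, had intensities of 482, 514 and 520 with PTH, 525, 492 and 543 with PTHrP, and 520, 523 and 517 in controls at its only probe set. The 3 controls lay close together, inside the range of the PTHrP arrays. The log2 change was -0.04 (SE 0.05, -0.16 to 0.08) with PTH and -0.0015 (SE 0.05, -0.12 to 0.12) with PTHrP.

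Uap1 (Entrez gene 107652), the pyrophosphorylase of the last step, had intensities of 2730, 2816 and 2817 with PTH, 2938, 2884 and 2943 with PTHrP, and 1846, 1887 and 1797 in controls. All 6 treated arrays were above all controls. The means were 2788 ± 50.3 with PTH, 2922 ± 32.5 with PTHrP and 1843 ± 44.8 in controls (SD, n = 3 each), with ratios of 1.51 and 1.59 to control. The log2 change was 0.59 (SE 0.04, 0.50 to 0.69) with PTH and 0.66 (SE 0.04, 0.56 to 0.76) with PTHrP, below the interval of Gfpt2 in each comparison.

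The other probe sets of Uap1 gave the same direction at very different brightness. The probe set that was the third in brightness read 1614, 1508 and 1617 with PTH, 1648, 1682 and 1597 with PTHrP, and 950, 971 and 965 in controls, log2 changes of 0.71 and 0.76. The dimmest, whose controls lay below the dim level, read 49.5 to 56.8 with PTH, 44.7 to 55.0 with PTHrP and 23.2 to 27.3 in controls, log2 changes of 0.71 and 0.68. On all 5 Uap1 probe sets each treated array was above each control, where 10.5% of all probe sets had such groups with PTH and 8.93% with PTHrP. Of the 5, 4 passed the test with each peptide, where 1.34% and 1.19% of all probe sets passed as higher. The one that did not pass, the fourth in brightness, read 176, 186 and 185 with PTH, 170, 188 and 177 with PTHrP, and 166, 136 and 155 in controls, and its log2 changes were 0.24 and 0.21. Probe sets of 1 gene share its transcripts and are not independent measurements.

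Ogt (Entrez gene 108155), which moves GlcNAc from the product of the pathway onto proteins, had intensities of 1429, 1457 and 1487 with PTH, 1484, 1465 and 1450 with PTHrP, and 1716, 1621 and 1555 in controls. The treated arrays were all below the lowest control, and the controls were the most spread of the 3 groups. The log2 change was -0.16 (SE 0.05, -0.27 to -0.05) with PTH and -0.15 (SE 0.05, -0.26 to -0.04) with PTHrP. These values did not pass the test over all genes, though they did with both peptides under a trended and robust variance and with PTH when the dimmest 40% of genes were left out. The second-brightest probe set read 623, 570 and 610 with PTH, 707, 629 and 609 with PTHrP, and 729, 778 and 721 in controls, log2 changes of -0.30 and -0.19. All 3 treated arrays were below all controls on 4 of the 5 Ogt probe sets with PTH and on 3 with PTHrP, where 11% and 9.43% of all probe sets had such groups. Over the 5 probe sets the log2 change ranged from -0.30 to -0.05 with PTH and from -0.20 to 0.03 with PTHrP.

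Of the 6 genes 2, Gfpt2 and Uap1, passed as higher with each peptide, where 2.94% of all genes did with PTH and 2.53% with PTHrP, and none passed as lower. The median log2 change of the 6 was 0.04 with PTH and 0.09 with PTHrP, where that of all genes was -0.0026 and -0.0049. In the fit of all probe sets 5 of the 22 passed as higher with each peptide, all of Gfpt2 or Uap1, where 1.34% of all probe sets did with PTH and 1.19% with PTHrP. All treated arrays were above all controls on 6 of the 22 with PTH and on 8 with PTHrP, where 10.5% and 8.93% of all probe sets were. Since earlier results of the same comparisons led to the choice of these genes, nothing is read from these shares. The PTH and PTHrP values were set against the same 3 controls and are not independent of each other.

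**Figure D2:**
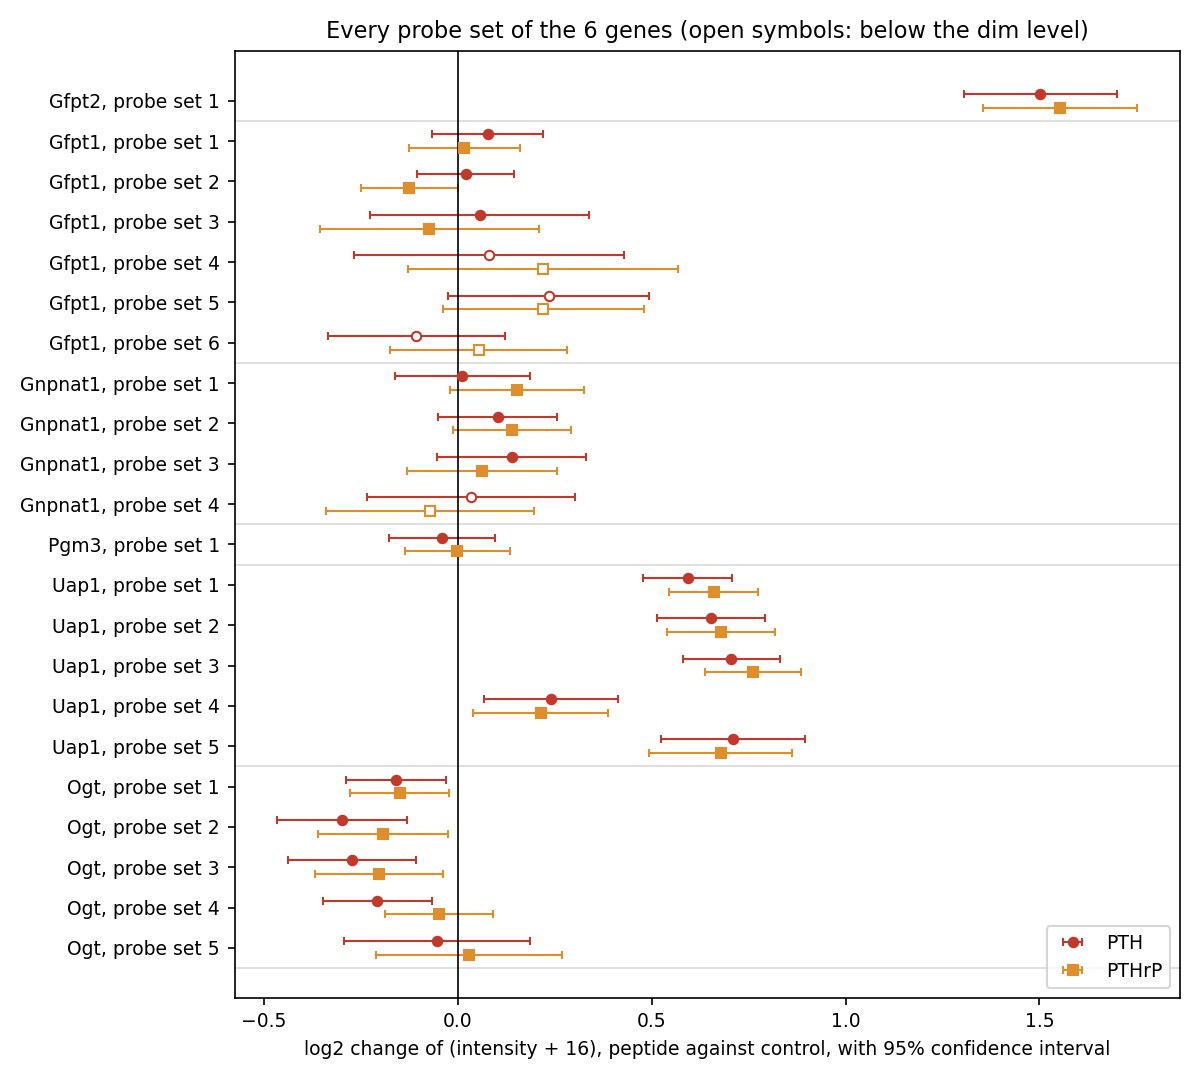
Log2 change of each of the 22 probe sets with PTH (circles) and PTHrP (squares) against control, with 95% confidence intervals from the fit of all probe sets. Within a gene the probe sets run from brightest to dimmest, and open symbols are the 4 below the dim level. The Uap1 intervals all lie above 0, and those of Gfpt1, Gnpnat1 and Pgm3 include 0 but for Gfpt1 probe set 2 with PTHrP, whose interval ends just below it.

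The same peptide dose and time allow PTH to be set against PTHrP directly, a comparison that the earlier results did not use to single out these genes. None of the 6 genes differed by limma's test, with an adjusted p of 0.999 for each, and of all 18193 genes 0% passed. An unadjusted p below 0.05 was found for 731 genes (4.02%), fewer than the 5% that such a threshold gives where nothing differs. The Gfpt2 difference, PTH minus PTHrP, was -0.05 (log2, SE 0.08, 95% interval -0.24 to 0.14). For Uap1 it was -0.07 (SE 0.04, -0.17 to 0.03), and for Ogt -0.01 (SE 0.05, -0.12 to 0.10). The 3 PTH arrays of Uap1 were all below the 3 PTHrP arrays, as were those of 3.83% of all genes.

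Gfpt1 differed by 0.06 (log2, SE 0.06, -0.07 to 0.19) and Pgm3 by -0.04 (SE 0.05, -0.16 to 0.08). Gnpnat1 had the largest difference of the 6, at -0.14 (SE 0.07, -0.30 to 0.02). Its interval includes 0 and reaches a log2 difference of -0.30. These intervals bound the differences and do not show that the peptides act alike.

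**Figure D3:**
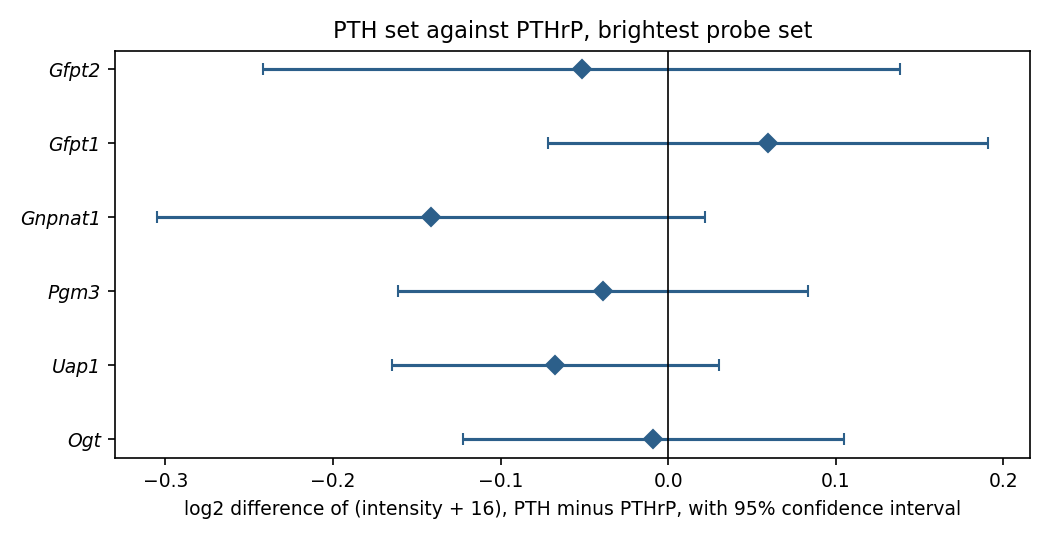
Log2 difference, PTH minus PTHrP, of the brightest probe set of each of the 6 genes, with its 95% confidence interval (n = 3 arrays a group). All 6 intervals include 0, and that of Gnpnat1 is centred farthest from it, at -0.14.

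Around the pathway, 55 genes in 4 lists were examined. They supply its substrates or draw on them, recycle or remove its products, use UDP-GlcNAc or sugars made from it, or bind OGT. With each peptide 5 of the 55 passed as higher and 3 as lower, together 14.5%, where 6.06% of all genes passed in either direction with PTH and 5.56% with PTHrP. Most of these genes are bright, and without the dimmest 40% of genes 11 of the 52 that remained passed with PTH (21.2%) and 13 with PTHrP (25%), where 16.1% and 15.3% of all remaining genes did. The 4 lists were drawn up with earlier results of these data known, so these shares are a description from which nothing is read. The p-values given below for listed genes against control carry the same limit. Leaving out an array lowered the PTH count of 8 to 5 (without control replicate 3 or any of the PTH replicates), and the PTHrP count of 8 to 5 (without control replicate 3 or PTHrP replicate 2). In those fits 2.57% to 3.81% of all genes passed with PTH, and 3.59% and 3.85% with PTHrP. None of the 55 differed between PTH and PTHrP at an adjusted p below 0.05.

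Among the 22 measured genes listed as users of UDP-GlcNAc or of sugars made from it, the hyaluronan synthase genes Has2 and Has1 rose. In this list Nans, Nanp, Cmas, Slc35a1, Galnt1 and Galnt2 act on sugars made from UDP-GlcNAc, not on UDP-GlcNAc itself. Has2, whose enzyme strings UDP-GlcNAc and UDP-glucuronate into hyaluronan, had intensities of 880, 874 and 878 with PTH, 915, 887 and 836 with PTHrP, and 385, 329 and 352 in controls. All 6 treated arrays were above every control, and the log2 change was 1.27 with PTH (SE 0.06, limma adjusted p = 7.73e-05) and 1.27 with PTHrP (limma adjusted p = 7.17e-05). Its other probe set gave 1.32 and 1.34. Has1, a second hyaluronan synthase, was much dimmer, with 67.0, 74.6 and 74.6 with PTH, 78.1, 63.4 and 83.6 with PTHrP, and 35.3, 35.2 and 29.1 in controls. Its groups did not overlap, and its log2 change was 0.84 with PTH (limma adjusted p = 0.00214) and 0.88 with PTHrP (limma adjusted p = 0.00159). At this brightness the size of the change depends on the pseudocount of 16, and was 1.10 and 1.15 with a pseudocount of 1 and 0.49 and 0.51 with 64. Has3, the remaining synthase gene of the family, did not pass with either peptide, but it was below the dim level on every array and carries little signal.

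Ext1, a subunit of the heparan sulfate polymerase, fell. It had intensities of 1035, 1087 and 1089 with PTH, 1038, 1111 and 1125 with PTHrP, and 1392, 1463 and 1408 in controls, with no overlap. The log2 change was -0.40 with PTH (limma adjusted p = 0.0036) and -0.38 with PTHrP (limma adjusted p = 0.00491). When the mean of its probe sets was used, the change was -0.16 with PTH and 0.089 with PTHrP and passed with neither, and the second probe set was below the dim level. Galnt2, which starts mucin-type glycans with the epimer UDP-GalNAc, rose by 0.37 with PTH (limma adjusted p = 0.0174) and 0.33 with PTHrP (limma adjusted p = 0.0301). Its calls were lost when control replicate 2 or 3 or any PTH replicate was left out. With PTHrP it was lost also without PTHrP replicate 1 or 2, with the replicate block and when only the 2 groups were fitted. Alg14, part of the transferase that adds the second GlcNAc of N-glycan precursors, fell by 0.19 with PTH (limma adjusted p = 0.0375) and had a change of -0.15 with PTHrP (limma adjusted p = 0.0882). It kept its PTH call under 5 of 19 alternatives, and the mean of its probe sets gave -0.01 with either peptide. The median log2 change of the 22 was 0.03 with PTH and 0.01 with PTHrP.

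**Figure D4:**
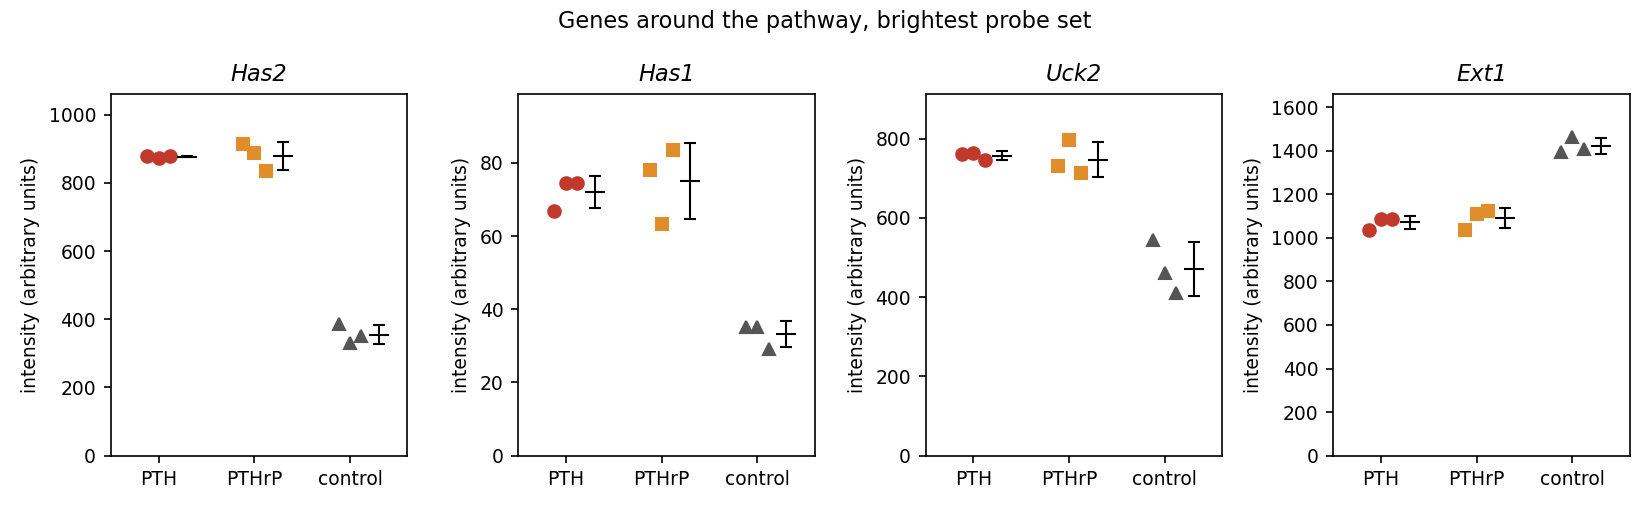
Intensity (arbitrary units, axes starting at 0) of the brightest probe set of Has2, Has1, Uck2 and Ext1. Symbols are the 3 arrays of each group and bars the mean ± SD. The 6 treated arrays lie above all controls for Has2, Has1 and Uck2 and below them for Ext1.

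Of the 13 measured genes that supply substrates of the pathway or draw on them, Uck2 and Pfkp rose and Slc2a4 fell with both peptides. Uck2, a uridine-cytidine kinase that salvages pyrimidines toward UTP, had intensities of 761, 765 and 746 with PTH, 730, 796 and 713 with PTHrP, and 543, 460 and 410 in controls. Every treated array was above the highest control, and the log2 change was 0.68 with PTH (limma adjusted p = 0.00541) and 0.65 with PTHrP (limma adjusted p = 0.00651), or 0.32 and 0.39 with the mean of its probe sets. Pfkp, a phosphofructokinase that draws fructose phosphate into glycolysis, rose by 0.48 with PTH (limma adjusted p = 0.00242) and 0.44 with PTHrP (limma adjusted p = 0.00374). Slc2a4, the insulin-responsive glucose transporter GLUT4, fell by 0.33 with PTH (limma adjusted p = 0.0231) and 0.38 with PTHrP (limma adjusted p = 0.0144). Its PTH call was lost when control replicate 1 or 3 or any PTH replicate was left out and under median centring, and its PTHrP call without control replicate 3 or PTHrP replicate 2 and when only the 2 groups were fitted. Not passing were the hexokinase genes Hk1 and Hk2, the glutamine synthetase gene Glul, the glutamine carrier genes Slc1a5 and Slc38a2, and Cad, which starts pyrimidine synthesis. The median log2 change of the 13 was 0.08 with PTH and 0.11 with PTHrP.

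A further list held genes of GlcNAc salvage, breakdown and transport, O-GlcNAc removal, and O-GlcNAc transfer outside the cytosol. Of 11 measured none passed with PTH, and 1 (9.09%), Eogt, fell with PTHrP, where 6.06% and 5.56% of all genes passed. Eogt encodes the transferase that places O-GlcNAc on extracellular domains in the endoplasmic reticulum, and had log2 changes of -0.26 with PTH (limma adjusted p = 0.123) and -0.37 with PTHrP (limma adjusted p = 0.0369). Averaged over its probe sets, Eogt had changes of -0.12 with PTH and -0.16 with PTHrP and passed with neither. It kept its PTHrP call under 7 of 19 alternatives, and lost it without any of the 3 control replicates, PTH replicate 2 or 3, or PTHrP replicate 2 or 3. Oga, the hydrolase that takes O-GlcNAc off proteins and so opposes OGT, had log2 changes of -0.05 with PTH (limma adjusted p = 0.62) and -0.01 with PTHrP (limma adjusted p = 0.93). Nagk, the kinase that salvages free GlcNAc, had -0.18 and -0.21 and passed with neither. The median of the 11 was -0.08 with PTH and -0.07 with PTHrP.

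None of the 9 known partners of OGT passed with either peptide, where 6.06% of all genes passed with PTH and 5.56% with PTHrP. For 9 genes that is near these shares, and nothing is read from it. Tet3 was below the dim level on every array and carries little signal. The largest changes with PTH were those of Tet1, a DNA demethylase (log2 0.21), and Trak2, which tethers mitochondria to motor proteins (log2 0.14). The Tet1 value rests on the brightest of its 4 probe sets and was 0.043 with their mean. The median of the 9 was 0.06 with PTH and 0.09 with PTHrP.

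**Figure D5:**
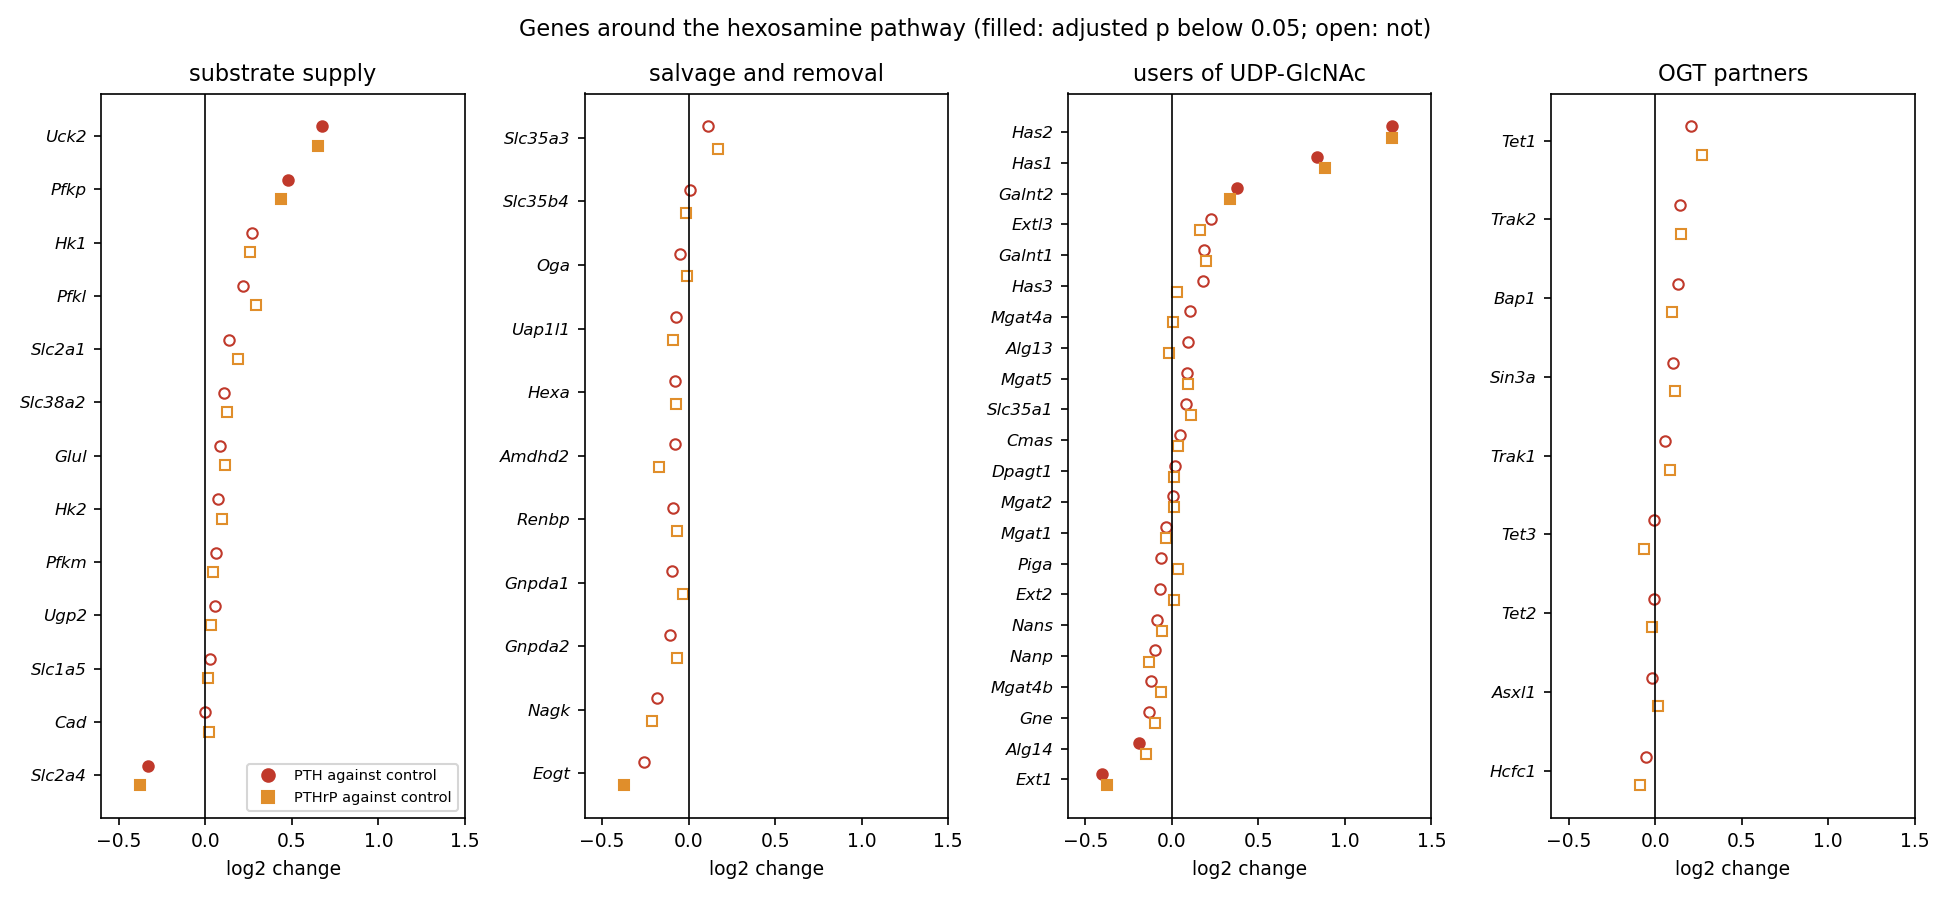
Log2 change with PTH (circles) and PTHrP (squares) against control of the 55 measured genes in the 4 lists around the pathway. Filled symbols passed at an adjusted p below 0.05. Has2 and Has1 lie farthest to the right, Slc2a4 and Ext1 among those farthest to the left, and the partners of OGT hold no filled symbol.

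Of the 10910 other genes that remained after the dimmest 40% of genes were set aside, the 5 whose profile over the 9 arrays was most like that of Gfpt2 were Tmem100, Cxcl1, S1pr1, Has2 and Rdh10. Likeness was the root mean square difference of the log2 values, each gene centred on its own mean, and the arrays share their treatment groups. It was 0.122 for Tmem100, 0.136 for Cxcl1 and S1pr1, 0.138 for Has2 and 0.142 for Rdh10, where the median of these genes was 0.731 and the SD of Gfpt2 over the arrays was 0.770. Tmem100, a membrane protein gene, had log2 changes of 1.44 with PTH and 1.46 with PTHrP, or 0.96 and 0.97 with a pseudocount of 64. Cxcl1, a neutrophil chemokine gene, had 1.45 and 1.35. S1pr1, a receptor gene for sphingosine phosphate, had 1.27 and 1.31, and Rdh10, a retinol dehydrogenase gene, had 1.35 and 1.43. Has2 is named both among these 5 and among the users of UDP-GlcNAc. Both rest on the same rise against control, and the list was drawn up with earlier results known. The 1 appearance therefore adds nothing to the other. Pth1r, the gene of the receptor for both peptides, had intensities of 224, 239 and 279 with PTH and 231, 253 and 250 with PTHrP, against 332, 344 and 333 in controls.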

How the data were processed

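Biotinylated cRNA from total RNA of 9 samples was read on 9 Affymetrix arrays, per the labels' protocols. The authors deposited 1 intensity per probe set and array; how probes were summarised, background-corrected and scaled the sources used here do not state. That the intensity is on a linear scale was taken from its range (highest value per array 17112.79 to 18614.24), and fold changes hold only if it is.

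From the deposited values, log2(intensity + 16) was fitted with limma 3.58.1 (R 4.3.3, statmod 1.5.0) as a mean for each of 3 groups of 3 arrays, with the empirical Bayes variance. Two-sided p-values had Benjamini-Hochberg adjustment, with a threshold of 0.05, over 18193 genes (each represented by its brightest probe set among 34945 with 1 gene symbol in the platform table) and, apart, over 45037 probe sets, leaving out 64 array controls. Symbols were updated through Entrez IDs. Of 59 listed genes, 4 are not reported here. Figures used Python 3.11.15 and matplotlib 3.10.9, and the fit was tested on simulated data.

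Members and lists were chosen with earlier results of these data known. Named were the 6 genes, in each list those that passed or else the 2 with the largest change with PTH, the 5 genes most like Gfpt2, and Pth1r and Ucp1; Has3, Oga, Nagk and other genes that did not pass were named for their role. Marker lists covered adipocytes, preadipocytes and fibroblasts (10 of 11 measured, 37272 to 40270 summed in treated and 39318 to 39913 in control arrays, Lum lower with PTH), macrophages, endothelium, smooth muscle and pericytes (Myh11 and Pdgfrb lower with both peptides), epithelium, lymphocytes and proliferation (5 of 6 measured, 4732 to 5666 and 5551 to 5733). The adipocyte marker Cidec was higher with both peptides. Same-numbered replicates did not deviate together (9 correlations between groups, -0.265 to 0.229), so the numbers were not used to pair samples. The alternatives were quantile normalization, median centring, averaging a gene's probe sets, removal of the dimmest 40% of genes, array weights, a trended and robust variance, the replicate block, pseudocounts of 1 and 64, fitting only the 2 groups compared, an adjusted p below 0.01, and leaving out each array.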

Additional observations from a re-analysis of the deposited data

How the results depend on the processing

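The values of the 6 genes against control led to their choice, and their ranges are given as a description. Over the 19 alternatives in which genes were fitted, the log2 change of Gfpt2 was 1.41 to 1.55 (PTH) and 1.46 to 1.63 (PTHrP), and that of Uap1 0.57 to 0.61 (PTH) and 0.60 to 0.68 (PTHrP). The count of the 6 genes that passed, 2 with each peptide, stayed at 2 when any array was left out and lay between 2 and 3 otherwise. Over all these alternatives, 2.28% to 16.1% of all genes passed with PTH and 2.18% to 15.3% with PTHrP. The count of their probe sets, 5 with PTH, was 8 under a trended and robust variance. The count of other pathway genes that passed with PTH, 8, was 5 at an adjusted p below 0.01, where 2.28% of all genes passed. It was 5 to 8 when an array was left out, where 2.57% to 5.75% of all genes passed. With PTHrP it was also 8, and became 13 without the dimmest 40% of genes (where the share of all genes that passed was 15.3%). Under the trended and robust variance it became 14 (where that share was 9.05%). It was 5 when only the 2 groups were fitted (2.5% of all genes) and 5 at an adjusted p below 0.01 (2.18%). When an array was left out it was 5 to 7, where 2.81% to 4.23% of all genes passed. With the replicate block, the 6 genes gave 2 calls with each peptide, and the other pathway genes 7 with PTH and 6 with PTHrP. Of all genes, 3.69% passed there with PTH and 3.14% with PTHrP. The probe sets of the 6 genes gave 5 calls with each peptide under the block. The shares for the alternatives are of genes, and none is given for probe sets. No gene of these lists passed between PTH and PTHrP under any alternative run. The change of Ext1 with PTHrP reversed to 0.089 with the mean of its probe sets (limma adjusted p = 0.922), 1 of them below the dim level. The causes of these changes were not tested, beyond fewer samples or a stricter threshold where those define the alternative. Among single genes, 1103 values kept direction and call, 50 lost the call, 7 gained it, and 33 that had not passed changed sign. These counts include PTH against PTHrP, where no named gene had passed and none could lose a call. Most of the genes outside the 6 were named because they had passed or were like Gfpt2. The counts are therefore no measure of how stable the calls are. With 3 arrays a group, changes of the size of those of Ogt lie at the edge of what passes. A probe set of low signal such as that of Has1 gives a size that depends on the pseudocount, and Gfpt2 and Pgm3 rest on 1 probe set each.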
